A study of Mus musculus with 3 samples.

Results

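The INK4 and CIP/KIP genes encode the inhibitors of cyclin-dependent kinases, the enzymes that carry cells from one cell cycle phase to the next. The family has 7 members: the INK4 genes Cdkn2a, Cdkn2b, Cdkn2c and Cdkn2d, and the CIP/KIP genes Cdkn1a, Cdkn1b and Cdkn1c. Every non-control probe of the arrays whose annotated symbol is one of these was taken, whatever its value, which gave 10 of 55681 probes: 6 probes for the 4 INK4 genes and 4 probes for the 3 CIP/KIP genes.

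Expression was measured in the dorsal cortex of mouse pups killed at postnatal day 4. Each of 3 arrays held the RNA of 1 pup labelled Brpf1-deficient, in the red dye Cy5, and of 1 pup labelled wild type, in the green dye Cy3, and the labels number these pairs 1 to 3. No treatment was given. The BRPF1 protein assembles histone acetyltransferases such as MOZ into complexes and reads chromatin marks. The sources used here do not give the kind of Brpf1 allele, any Cre driver, the strain or the litters of the pups, so p-values measure the spread between these 3 arrays.

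INK4 proteins bind Cdk4 and Cdk6 and keep D-type cyclins from activating them, which leaves the retinoblastoma protein able to hold E2F factors in check. CIP/KIP proteins bind a wider set of cyclin and kinase pairs, among them those of Cdk2. Cdkn2a and Cdkn2b lie side by side in the genome. Cdkn2a gives rise to p16Ink4a and, from its own first exon and in another reading frame, to p19Arf, which stabilises p53 by binding Mdm2. In neural progenitors of the mouse, the Cdkn2a products are known as targets of polycomb repression through Bmi1.

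The promoters of Cdkn2b and of both Cdkn2a transcripts are shown because these were the members whose channels differed most. Each window runs from 250 bases before to 50 bases after the annotated start, 5′ to 3′ on the gene's strand, as RefSeq gives it on GRCm38.p6, and capitals mark GC boxes (GGGCGG, searched on both strands).
Cdkn2b, chr4:89310983-89311282, minus strand: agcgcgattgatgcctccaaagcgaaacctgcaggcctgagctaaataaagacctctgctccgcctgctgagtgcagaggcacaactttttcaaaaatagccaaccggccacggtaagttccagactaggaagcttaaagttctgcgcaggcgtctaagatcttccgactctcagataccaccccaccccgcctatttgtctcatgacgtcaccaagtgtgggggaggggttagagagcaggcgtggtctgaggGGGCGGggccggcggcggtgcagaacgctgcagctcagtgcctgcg
Cdkn2a, upstream start (Arf), chr4:89294570-89294869, minus strand: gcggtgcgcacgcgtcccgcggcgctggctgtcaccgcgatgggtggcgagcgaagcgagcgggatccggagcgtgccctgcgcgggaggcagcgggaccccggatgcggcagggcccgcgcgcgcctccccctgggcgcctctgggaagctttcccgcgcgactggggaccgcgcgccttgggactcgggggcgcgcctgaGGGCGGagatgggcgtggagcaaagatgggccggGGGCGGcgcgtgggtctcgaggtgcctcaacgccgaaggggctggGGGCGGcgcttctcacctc
Cdkn2a, downstream start (Ink4a), chr4:89282143-89282442, minus strand: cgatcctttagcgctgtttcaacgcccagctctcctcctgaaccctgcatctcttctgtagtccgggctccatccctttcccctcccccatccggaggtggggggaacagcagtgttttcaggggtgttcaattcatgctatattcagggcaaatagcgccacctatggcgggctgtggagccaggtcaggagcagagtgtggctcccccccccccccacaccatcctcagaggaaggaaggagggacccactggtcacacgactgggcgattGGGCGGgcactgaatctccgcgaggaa
The Arf window held 45 CpG dinucleotides and 3 GC boxes, and 98.1% of the 32851 RefSeq promoter windows held fewer CpGs. The Ink4a window held 12 CpGs and 1 GC box, and the Cdkn2b window 18 CpGs and 1 GC box, where the median over all windows was 7 CpGs. A GC box occurred in 35.7% of all windows. None of the 3 windows held the letters CACGTG (in 7.15% of all windows), TATAAA (13.6%), or TTTCGCGC and TTTGGCGC (0.813% with either), on either strand. A match or its absence describes these letters only.

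The direction of the channels was checked with Brpf1 itself. Its 1 probe had a normalised intensity of 3725, 4016 and 4002 in Cy5, labelled Brpf1-deficient, against 2416, 2426 and 2051 in Cy3, labelled wild type. Brpf1 was thus brighter on every array in the channel labelled deficient in it, and its log2 ratio (Cy5 over Cy3) was 0.62, 0.73 and 0.96 (mean 0.77 ± 0.17, SD, n = 3; adjusted p = 0.00447). Whether the probe lies inside or outside the deleted part is not stated. The authors' deposited table runs the other way: of the 5557 probes called here, all 5557 have the opposite sign in it. That table holds no entry with an unadjusted p above 0.458 in its limma fit, so probes with larger p-values are left out of the comparison. Across the 23924 probes in both sets the ratios correlated at r = -0.938, and the deposited value for Brpf1 is -0.80. The channels are therefore named below by dye and label, and which genotype each one holds was not settled by these values.

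The arrays were alike in their shares of spots above background. Array 1 had a higher median Cy5 background, 148 against 111.5 and 112 on arrays 2 and 3. The log2 ratios over all genes correlated at r = 0.565 between arrays 1 and 2, 0.702 between 1 and 3 and 0.588 between 2 and 3. Of 59305 non-control spots per array, 57.9% to 58.2% were well above background in Cy5 and 59.9% to 61.0% in Cy3, and none was saturated. Because Cy5 always carried the same label, dye and genotype cannot be told apart. The 5 neuronal markers Neurod6, Tbr1, Bcl11b, Tubb3 and Slc17a7 were well above background in both channels on all 3 arrays. Of these, 3 were called brighter in Cy5 and 1 in Cy3, against 7.97% and 9.16% of all genes. All 6 striatal markers were likewise well above background in both channels on all 3 arrays, so this flag does not tell cortex from striatum.

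All 10 probes of the family passed the filter on dim probes. In the fit over genes, 2 of 7 members were called at an adjusted p below 0.05, both brighter in Cy3, against 17.1% of all 23232 genes called in either direction, 9.16% called brighter in Cy3 and 7.97% in Cy5. In the fit over probes, 4 of 10 were called, all brighter in Cy3, against 16.8% of 32983 probes called, 9.37% brighter in Cy3 and 7.48% in Cy5. Both Cdkn2a probes passed the filter only through Cy3, the channel in which they were brighter, so these counts are a description. No member was called brighter in Cy5, and at an unadjusted p below 0.05 in limma there were again 0 in Cy5 and 3 genes in Cy3. Without array 3 the fit called 1848 of all genes in place of 3979, and 2 members. The median log2 ratio over the 7 genes was 0.05, against -0.01 over all genes. The calls lay on the neighbours Cdkn2a and Cdkn2b, and the other 5 genes had ratios between -0.22 and 0.15.

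**Figure D1:**
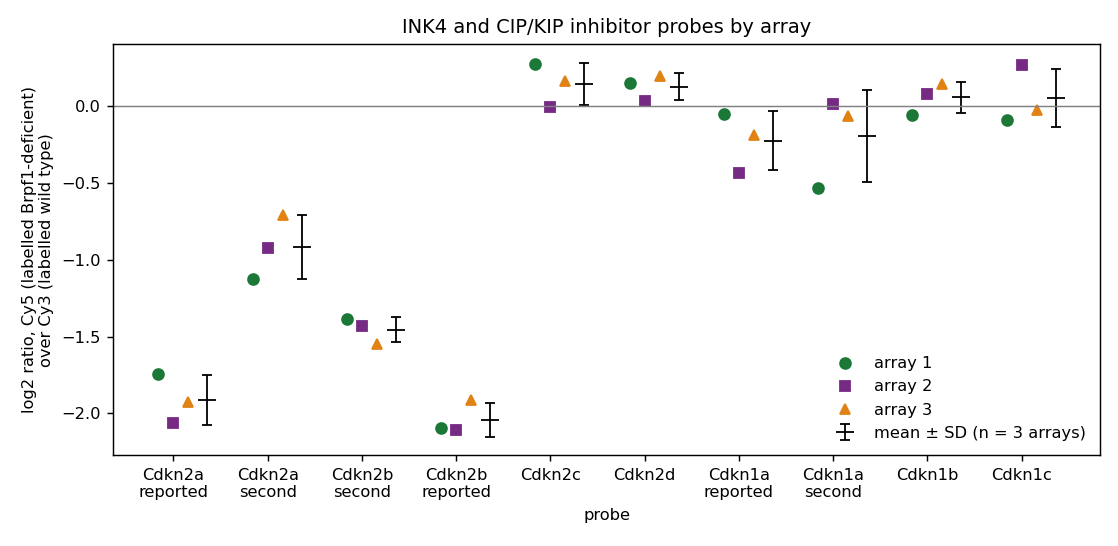
Log2 ratio of Cy5 (labelled Brpf1-deficient) over Cy3 (labelled wild type) for the 10 probes of the family, 1 point per array, with the mean and SD of the 3 arrays beside them. The 4 probes of Cdkn2a and Cdkn2b lie at -0.71 or below on every array, and the points of the other 6 probes lie between -0.53 and 0.27.

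Cdkn2b, which encodes the Cdk4 and Cdk6 inhibitor p15Ink4b, was brighter in Cy3 on every array. Its brighter probe, A_55_P1988183, had a normalised intensity of 548, 463 and 531 in Cy5, labelled Brpf1-deficient, against 2344, 1998 and 2000 in Cy3, labelled wild type. The channels did not overlap, and the probe was well above background in both on all 3 arrays. The log2 ratio was -2.10, -2.11 and -1.91 (mean -2.04 ± 0.11, SD, n = 3; 95% interval of the moderated fit -2.22 to -1.86). Cdkn2b was thus 4.11-fold brighter in Cy3, with an adjusted p of 3.68e-05 over all genes. It ranked 13 from the lowest of the 23232 ratios, 49 of which were called at -1 or below.

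The second Cdkn2b probe, A_55_P1979526, differed in the same direction. It had 314, 247 and 247 in Cy5 against 819, 667 and 722 in Cy3, again without overlap and well above background throughout. Its log2 ratio was -1.38, -1.43 and -1.55 (mean -1.45 ± 0.08, SD, n = 3; adjusted p = 0.000135 over all probes), which is 2.74-fold brighter in Cy3. The brighter probe had the lower ratio on all 3 arrays, by -0.59 ± 0.19, so the size of the difference depends on the probe while its direction does not.

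Cdkn2a, the gene of p16Ink4a and p19Arf, was dim in the Cy5 channel. The probe that stands for it, A_55_P2008437, had a normalised intensity of 186, 157 and 140 in Cy5 against 621, 654 and 532 in Cy3. In Cy3 it was well above background throughout, but in Cy5 on array 2 only, where the spot's median was 195 over a local background of 115. The log2 ratio was -1.74, -2.06 and -1.93 (mean -1.91 ± 0.16, SD, n = 3; 95% interval -2.11 to -1.72), and the adjusted p over all genes was 8.20e-05. As measured this is 3.76-fold brighter in Cy3. With Cy5 clear of background on 1 array only, the size rests on the background correction: with the scanner software's processed signals the mean was -3.14 in place of -1.91. Since the probe passed the filter through Cy3, the channel in which it was brighter, its p and interval describe the fit and are no separate support.

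The second Cdkn2a probe, A_55_P2008438, was dimmer still. It had 81.4, 114 and 117 in Cy5, where no array placed it clear of background, against 177, 216 and 191 in Cy3, where all 3 did. On array 1 the Cy5 spot's median was 138.5, below its local background of 189, so the value of 81.4 rests on the correction. As measured the probe was 1.89-fold brighter in Cy3. Its Cy5 values lay above the lowest Cy5 signal well above background on each array (74.7, 111 and 92.0). Setting the dim channel no lower than that signal therefore left the ratio unchanged, and its size rests on the background correction. The fitted log2 ratios, whose Cy5 side is at background, were -1.12, -0.92 and -0.71 (mean -0.92 ± 0.21, SD, n = 3; adjusted p = 0.00298 over all probes), and their mean was -2.91 with the processed signals. These values describe the fit and are no separate support. In the authors' deposited table both probes are assigned to both Cdkn2a transcripts, so the p16Ink4a and p19Arf messages were not told apart here.

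The other INK4 genes did not pass the test. Cdkn2c, which encodes p18Ink4c, had 1684, 1459 and 1495 in Cy5 against 1393, 1462 and 1332 in Cy3. Its log2 ratio was 0.27, -0.00 and 0.17 (mean 0.15 ± 0.14, SD, n = 3; adjusted p = 0.218), and the channels overlapped. The 95% interval of -0.04 to 0.33 lies far from the values of Cdkn2a and Cdkn2b.

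Cdkn2d, the gene of p19Ink4d, an inhibitor with a known role in keeping neurons out of the cell cycle, was well above background in both channels on every array. It had 21608, 20695 and 22062 in Cy5 against 19426, 20232 and 19198 in Cy3. Every Cy5 value was above every Cy3 value, but the log2 ratio of 0.15, 0.03 and 0.20 (mean 0.13 ± 0.09, SD, n = 3) did not pass the test (adjusted p = 0.229; interval -0.04 to 0.30). With median centring of each array in place of loess the mean was 0.39 and the adjusted p 0.0187. This was the 1 alternative in which a further member was called. It called 5357 of all genes, 4466 of them brighter in Cy5, against 3979 and 1851 as reported.

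**Figure D2:**
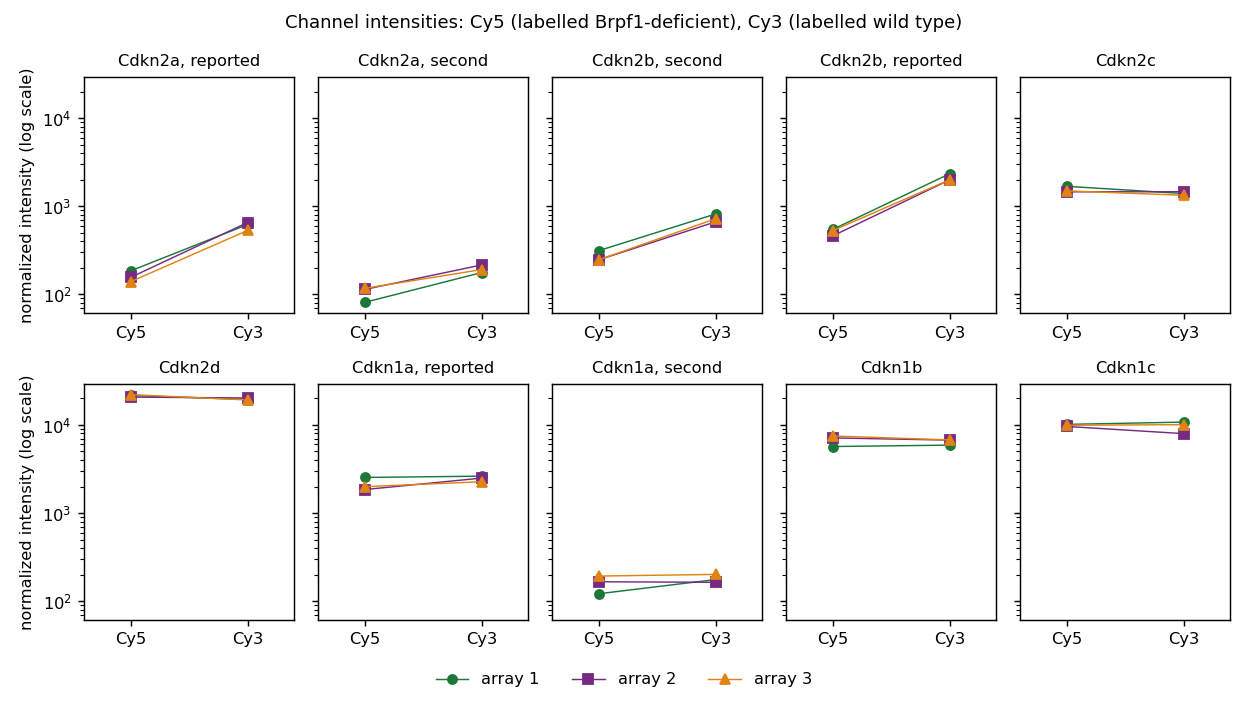
Normalised intensity (log scale) of each of the 10 probes in Cy5 (labelled Brpf1-deficient, left) and Cy3 (labelled wild type, right), with a line joining the channels of each of the 3 arrays. The lines of the Cdkn2a and Cdkn2b probes climb towards Cy3 on every array, while those of the other probes are flatter; levels cannot be compared between probes.

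Cdkn1a, which encodes p21Cip1, the inhibitor best known as a p53 target, had a lower mean in Cy5 that did not pass the test. Its probe A_51_P363947, printed as 10 spots per array, had 2536, 1850 and 1994 in Cy5 against 2624, 2494 and 2267 in Cy3. The channels overlapped between arrays, although Cy3 was the brighter on each. The log2 ratio was -0.05, -0.43 and -0.18 (mean -0.22 ± 0.19, SD, n = 3; 95% interval -0.43 to -0.01), with an adjusted p of 0.119 over all genes.

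The 10 spots gave the spread within an array. Within array 1 they ran from -0.12 to 0.02 (SD 0.044), within array 2 from -0.51 to -0.34 (SD 0.061) and within array 3 from -0.23 to -0.15 (SD 0.029). The spots of the 3 arrays did not overlap. The second Cdkn1a probe, A_55_P1986282, is assigned to transcript variant 2 and was near background, well above it in Cy5 on arrays 2 and 3 only. It had 122, 166 and 193 in Cy5 against 176, 164 and 201 in Cy3, a log2 ratio of -0.53, 0.02 and -0.06 (mean -0.19 ± 0.30, SD, n = 3; adjusted p = 0.249 over all probes).

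Cdkn1b, which encodes p27Kip1, an inhibitor through which cortical progenitors leave the cell cycle, had 5688, 7125 and 7492 in Cy5 against 5903, 6727 and 6761 in Cy3. Its log2 ratio of -0.05, 0.08 and 0.15 changed sign between arrays (mean 0.06 ± 0.10, SD, n = 3; adjusted p = 0.587). The 95% interval ran from -0.12 to 0.23.

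Cdkn1c, the imprinted gene of p57Kip2, had 10143, 9609 and 9926 in Cy5 against 10770, 7967 and 10075 in Cy3. Its log2 ratio was -0.09, 0.27 and -0.02 (mean 0.05 ± 0.19, SD, n = 3; adjusted p = 0.685; interval -0.15 to 0.26), so 1 array stood above 0 and the others below it. Without array 2 the mean turned to -0.05, still not called.

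Ordered by ratio, the genes ran Cdkn2b, Cdkn2a, Cdkn1a, Cdkn1c, Cdkn1b, Cdkn2d and Cdkn2c, from low to high. Neighbours in this order overlapped in their values by array except at 1 place. Cdkn1a lay above Cdkn2a on 3 of 3 arrays, by 1.69 ± 0.06 on the log2 scale as measured, a size that rests on the dim Cy5 signal of Cdkn2a. With the processed signals their means were -0.23 and -3.14. The order of Cdkn2b and Cdkn2a was not settled: the gap was 0.13 ± 0.20, and it turned with the processed signals (-2.26 for Cdkn2b and -3.14 for Cdkn2a) and with a normexp offset of 16 (-2.12 and -2.17).

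**Figure D3:**
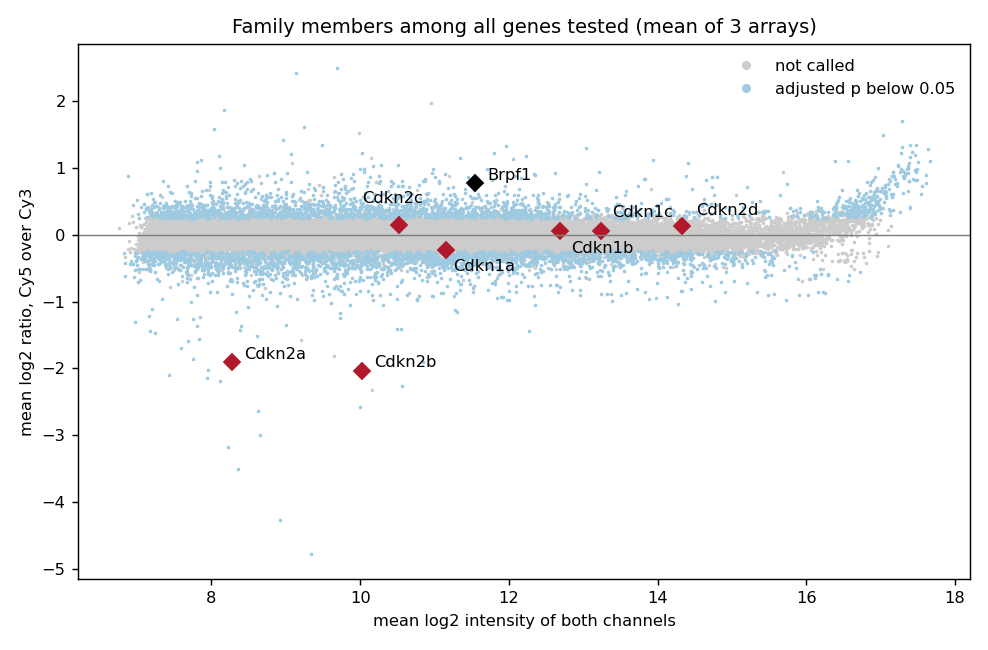
Mean log2 ratio of Cy5 over Cy3 against the mean log2 intensity of both channels for all 23232 genes, with called genes in blue, the 7 family members as red diamonds and Brpf1 as a black diamond. Cdkn2a and Cdkn2b lie near -2, below nearly all genes, and the other 5 members lie within the band of genes around 0.

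The genes around Cdkn2a and Cdkn2b were read next. Among the 4 nearest annotated genes on each side, those measured here were Mtap, an enzyme of methionine salvage, on one side, and Dmrta1, Zfp352 and Gm12633 on the other; they are named for their position. Mtap had a log2 ratio of -0.12 ± 0.02 (adjusted p = 0.227) and Dmrta1 of -0.21 ± 0.16 (adjusted p = 0.117). Zfp352 had 0.10 ± 0.22 and Gm12633 had 0.15 ± 0.06 (SD, n = 3 each), neither called. The 2 called genes of this stretch were thus Cdkn2a and Cdkn2b themselves.

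Around all 7 members, 24 of 49 neighbouring genes were tested and 1 was called, against 17.1% of all genes. This was Dmrta2, a DM-domain transcription factor of the early dorsal telencephalon, which lies near Cdkn2c. Its log2 ratio was -0.85, -0.64 and -0.61 (mean -0.70 ± 0.13, SD, n = 3; adjusted p = 0.00442), so it was brighter in Cy3 while Cdkn2c was not called.

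The kinases and cyclins that the family inhibits were described as a list. Of 14 partners tested, 3 were called brighter in Cy5 and 0 in Cy3, where the shares over all genes were 7.97% and 9.16%, and the median log2 ratio was 0.20 against -0.01 over all genes. At an unadjusted p below 0.05 in limma, 7 were brighter in Cy5 and 0 in Cy3. The called genes were the D-type cyclins Ccnd1 and Ccnd2, which activate Cdk4 and Cdk6, and cyclin E1 (Ccne1), which activates Cdk2. Ccnd1 had 0.49, 0.24 and 0.26 (mean 0.33 ± 0.14, SD, n = 3; adjusted p = 0.0350). Ccnd2 had 0.39, 0.36 and 0.18 (mean 0.31 ± 0.11; adjusted p = 0.0347). Ccne1 had 0.44, 0.23 and 0.31 (mean 0.33 ± 0.11; adjusted p = 0.0306), but a second probe of it gave 0.01. Without array 3 none of these 3 genes was called, at adjusted p values of 0.0965 for Ccne1, 0.0818 for Ccnd1 and 0.0626 for Ccnd2. Ccnd1 and Ccnd2 were not called without array 1 either (adjusted p = 0.0506 and 0.0575), nor Ccnd2 without array 2 (adjusted p = 0.104).

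Among the pocket proteins and E2F factors, 1 of 13 genes was called brighter in Cy5 and 1 brighter in Cy3, with a median of -0.02, where 17.1% of all genes were called. E2f1, an activator of S-phase genes, had 0.67, 0.48 and 0.54 (mean 0.56 ± 0.10, SD, n = 3; adjusted p = 0.00723), and it was called in 13 of 13 alternatives. Rb1, the retinoblastoma gene, had -0.25, -0.23 and -0.26 (mean -0.25 ± 0.02; adjusted p = 0.0450). It was not called without array 1, 2 or 3, at adjusted p values of 0.0516, 0.138 and 0.188.

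Proliferation genes were read as a further list. Of 15 tested, 1 was called brighter in Cy5 and 0 in Cy3, where 17.1% of all genes were called in either direction, and the median was -0.01, as over all genes. The called gene was Mcm5, a subunit of the replicative helicase, at 0.29 ± 0.08 (adjusted p = 0.0346). It was not called without array 1, 2 or 3, at adjusted p values of 0.050, 0.0833 and 0.0929. At an unadjusted p below 0.05 in limma, 2 proliferation genes had the brighter signal in Cy5 and 2 in Cy3.

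In the arm of p19Arf and p53, 1 of 16 genes was called in each direction, with a median of -0.01, where 17.1% of all genes were called. Trp53inp1, a p53-induced stress gene, had -0.35 ± 0.06 (adjusted p = 0.0205), but its other probe gave 0.05, and it was not called without array 2 or 3 (adjusted p = 0.0571 and 0.0573). Sesn2, a stress-induced sestrin, had 0.27 ± 0.11 (adjusted p = 0.0484), and was not called without array 2 or 3 (adjusted p = 0.110 and 0.250). Trp53 at -0.11 ± 0.13 (adjusted p = 0.344) and Mdm2 at 0.02 ± 0.07 (SD, n = 3 each; adjusted p = 0.862), named as the partners of p19Arf after their values were seen, were not called.

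Polycomb genes, the known repressors of the Ink4-Arf locus, were called at a share near that of all genes when both directions were counted. Every call was brighter in Cy3. Of 17 tested, 0 were called brighter in Cy5 and 3 in Cy3, where 17.1% of all genes were called in either direction and 9.16% in Cy3, and the median was -0.07 against -0.01 over all genes. At an unadjusted p below 0.05 in limma, 0 were brighter in Cy5 and 6 in Cy3. Bmi1, a core subunit of polycomb repressive complex 1, had -0.70, -0.59 and -0.78 (mean -0.69 ± 0.09, SD, n = 3; adjusted p = 0.00355). Its second probe gave -0.70, and Bmi1 was called in 13 of 13 alternatives. Suz12, a subunit of polycomb repressive complex 2, had -0.33 ± 0.12 (adjusted p = 0.0308). Phc3, a polyhomeotic subunit of complex 1, had -0.36 ± 0.19 (adjusted p = 0.0349), with a second probe at 0.15. Neither was called without array 3, at adjusted p values of 0.0808 for Suz12 and 0.0568 for Phc3. The direction of the probes that stand for these 3 genes was the same under every alternative run.

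Genes for the degradation of p27Kip1 and p21Cip1, among them the ubiquitin ligase subunit Skp2, gave 0 calls among 9 tested, with a median of -0.08 and ratios from -0.25 to 0.17, and 0 at an unadjusted p below 0.05 in limma. Over all genes, 17.1% were called in either direction. Of 3 other genes with Cdkn symbols, which are not inhibitors of either class, 1 was called. This was Cdkn2aip, a binding partner of ARF, at -0.28 ± 0.04 (SD, n = 3; adjusted p = 0.0350), and it was not called without array 2 or 3 (adjusted p = 0.0926 and 0.128).

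The calls of these related genes differed in how they held under other processing. With the scanner software's processed signals Bmi1 and E2f1 were called, and Ccne1, Ccnd1, Ccnd2, Rb1, Mcm5, Trp53inp1, Sesn2, Suz12, Phc3 and Cdkn2aip were not, at adjusted p values of 0.0573 to 0.0981. With median centring in place of loess the calls of Suz12 (adjusted p = 0.1499), Phc3 (0.157), Rb1 (0.223) and Cdkn2aip (0.0715) were lost. With all probes of a gene averaged those of Phc3 (-0.11, adjusted p = 0.388), Ccne1 (0.17, 0.117) and Trp53inp1 (-0.15, 0.146) were lost. Of 13 alternatives, Suz12, Ccne1 and Ccnd1 were called in 10, Phc3, Ccnd2, Mcm5, Trp53inp1 and Cdkn2aip in 9, Rb1 in 7 and Sesn2 in 6.

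**Figure D4:**
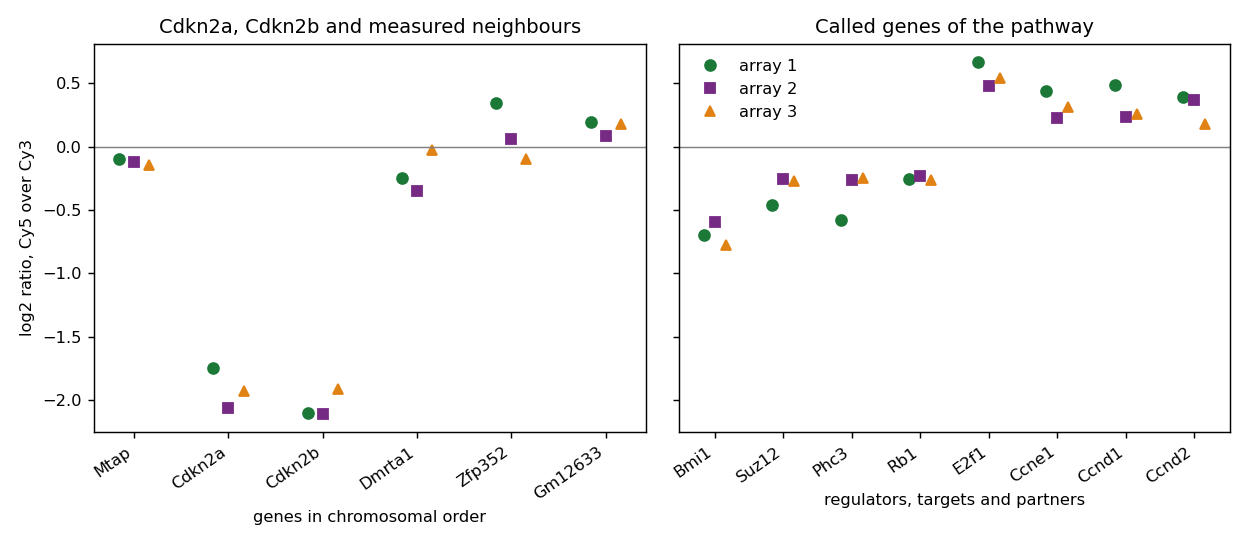
Log2 ratio of Cy5 (labelled Brpf1-deficient) over Cy3 (labelled wild type) on each of the 3 arrays, on the left for Cdkn2a, Cdkn2b and their measured neighbours in chromosomal order, on the right for called polycomb, pocket protein, E2F and cyclin genes. Cdkn2a and Cdkn2b stand at -1.74 or below on every array and their neighbours at -0.35 or above, and no pathway gene shown reaches beyond -0.78 or 0.67.

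The genes with 3 array values nearest to those of Cdkn2b, among genes with a symbol, were found by Euclidean distance over the 3 log2 ratios. The rule named Onecut1, a homeodomain factor, Aldh1a3, an enzyme of retinoic acid synthesis, Hoxd9, and Tal1, a factor of blood formation. Aldh1a3, at a distance of 0.309, had a mean ratio of -1.91 ± 0.19, and Tal1, at 0.396, of -2.27 ± 0.15 (SD, n = 3 each). Onecut1 and Hoxd9 had no Cy5 spot well above background. With Cy5 set no lower than the lowest signal well above background on its array, Hoxd9 was at least 3.44-fold brighter in Cy3. For Onecut1 this left the fitted ratio unchanged, at 4.07-fold brighter in Cy3. Their distances of 0.200 and 0.385 therefore rest on values at background and set no order: with the processed signals their means were -3.31 and -4.28, where that of Cdkn2b was -2.26.

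In the authors' deposited table, whose sign runs opposite to the ratios above, the Cdkn2a probes have log2 fold changes of 2.90 and 2.28 and the Cdkn2b probes of 2.25 and 1.84. Their adjusted p-values in that table are 0.159 and 0.240 for Cdkn2a and 0.159 and 0.188 for Cdkn2b, where 0.159 is the lowest of its 40000 entries. The authors' deposited table also gives 0.23 and 0.61 for the Cdkn1a probes, -0.17 for Cdkn2c and -0.13 for Cdkn2d. Cdkn1b and Cdkn1c have no entry among those rows.

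**Figure D5:**
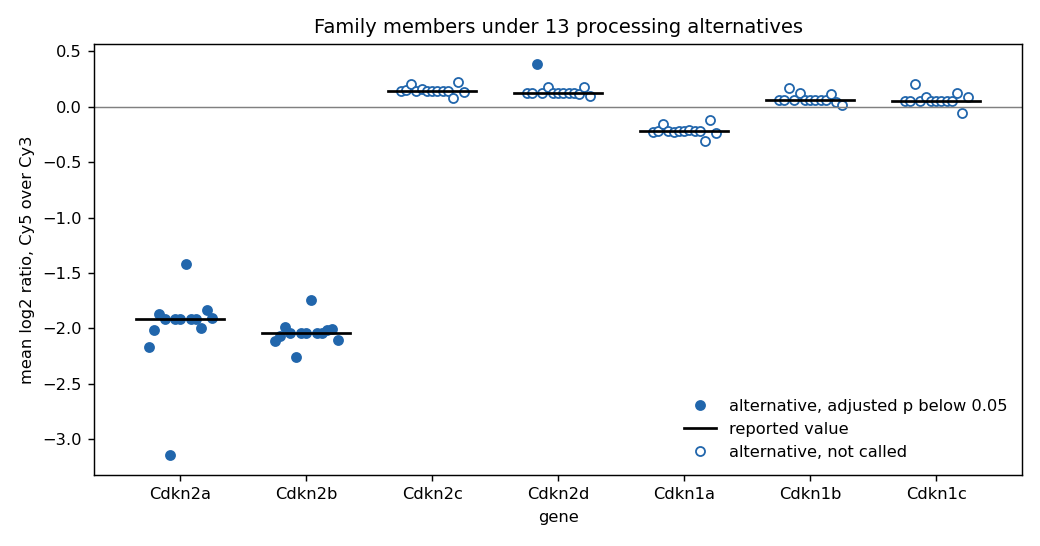
Mean log2 ratio of Cy5 over Cy3 for each of the 7 genes under 13 processing alternatives (circles, filled where the adjusted p was below 0.05), with the reported value as a line. Cdkn2a and Cdkn2b stay at -1.41 or below and called throughout, and the other 5 genes stay between -0.31 and 0.39. The calls of Cdkn2a rest on a dim Cy5 signal and are no separate support.

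Cell type markers differed between the channels as well. Over all genes, 7.97% were called brighter in Cy5 and 9.16% in Cy3. Of 6 striatal markers, 5 were called brighter in Cy5 and 0 in Cy3, with a median of 0.77. Their summed intensity ran from 60837 to 68452 in Cy5 and from 24058 to 48086 in Cy3. The difference varied by array, with log2 ratios of 0.82 to 2.15 on array 1, 0.05 to 0.46 on array 2 and 0.53 to 1.22 on array 3. Of 6 intermediate progenitor markers, 3 were called brighter in Cy5, with sums of 16229 to 17235 in Cy5 and 12478 to 13167 in Cy3. Microglial markers gave 3 of 7 calls brighter in Cy5 (sums of 25681 to 31694 in Cy5 and 24092 to 26024 in Cy3), and erythroid markers 1 of 3 (109269 to 163706 in Cy5 and 38420 to 90299 in Cy3). The 3 microglial calls had adjusted p values of 0.0422 to 0.0485 in limma, and the other 4 markers were not called. Marker calls were not rerun under the processing alternatives. Every tested marker of these 4 lists was well above background in both channels on all 3 arrays. Their part in the family's values was not tested.

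Some glial markers were brighter in Cy3, where 9.16% of all genes were called in Cy3, 7.97% in Cy5 and 17.1% in either direction. Of 5 astrocyte markers, 2 were called brighter in Cy3 and 0 in Cy5, with sums of 52169 to 53742 in Cy5 and 61194 to 65369 in Cy3. Of these 2 genes, 1 is also on the radial glia list, and the other has further probes at 0.07 and -0.22. Radial glia gave 2 of 8 calls in Cy3 and 1 in Cy5 (210145 to 217345 in Cy5 and 189352 to 202823 in Cy3), while cycling cells gave 0 of 5 calls in limma, with 1 marker in each direction at an unadjusted p below 0.05. Endothelial markers gave 1 of 6 calls in Cy5, and oligodendrocyte, meningeal and choroid plexus markers gave 0 calls, with 1 marker of each list at an unadjusted p below 0.05. Choroid plexus sums varied most between arrays, from 4455 to 72556 in Cy5 and from 17664 to 67706 in Cy3. In such bulk tissue, fewer cells of a type and less RNA per cell cannot be told apart, and the part of these markers in the values of Cdkn2a and Cdkn2b was not tested.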

How the data were processed

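Each scanner file, as deposited, holds 2 channels. Per the file headers it lists for every spot an unnormalized median intensity with the median of the surrounding background, a processed intensity after background subtraction and dye normalization, and a log10 ratio of the processed intensities. Feature Extraction 10.7.3.1 from Agilent produced it with a grid of build mm9, per the file headers. The authors' deposited table gives log2 fold changes and averages, 2 scores (t and log-odds) and p-values; limma is named in the submitters' processing notes, while direction and normalization are not stated.

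Here the medians were corrected with normexp (offset 50) and normalized by loess within each array in limma 3.58.1 under R 4.3.3, with control spots at weight 0 and population-outlier spots removed, and spots of the same probe averaged. A probe was kept when 1 channel or both stood well above background on 2 or more of the 3 arrays, and the probe of highest mean intensity stood for its gene. The log2 ratio of Cy5 over Cy3 was tested against 0, two-sided, with an intercept-only limma fit and Benjamini-Hochberg adjustment over all 23232 genes or 32983 probes at a threshold of 0.05. Levels are channel values after a further Aquantile step, which leaves the ratios as they are. Precision is limited by the number of arrays. All members were named through RefSeq accessions on GRCm38.p6, used for names, gene order and promoter windows only.

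The text names all members, Brpf1, up to 3 called genes per related list, called neighbours and the 4 genes nearest to Cdkn2b. Of the neuronal marker list, 1 gene is not reported here. Members and lists were chosen with earlier results of these data known. Alternatives covered background correction, normalization, signals, filter, probe choice, variance model, spots and arrays left out.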

Additional observations from a re-analysis of the deposited data

How the results depend on the processing

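Cdkn2a and Cdkn2b were called in 13 of 13 alternatives, with means of -3.14 to -1.41 and -2.26 to -1.75. Both Cdkn2a probes passed the filter only through Cy3, so the calls of Cdkn2a describe the fit and are no separate support. Brpf1 was called brighter in Cy5 under every alternative run. The number of members called was 2 genes and 4 probes throughout, except with median centring, which added Cdkn2d (3 genes and 5 probes). The number of genes called was 1102 with the scanner software's processed signals, against 3979 as reported, and the number of probes 1433, against 5557. Leaving out 1 array at a time gave 1848 to 3743 genes and 2062 to 5700 probes, the lowest without array 3. Leaving out an array gave means between -1.996 and -1.84 for Cdkn2a, -2.10 to -2.01 for Cdkn2b and 0.68 to 0.85 for Brpf1. With median centring in place of loess 83.4% of the genes called were brighter in Cy5, against 46.5% as reported, and the median of all genes was 0.09, against -0.01. The cause of these changes was not tested. Cdkn1c had the opposite sign, uncalled, without array 2 only. The ratio within each array is itself the paired value, so no further replicate block was fitted. The dim Cy5 signal limits both Cdkn2a probes.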
